A study of Homo sapiens with 4 samples.

Results

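The genes described are the MYC network of LASCPC-01, an established human cell line of neuroendocrine prostate cancer (NEPC) that was made with NMYC, the protein of MYCN, and activated AKT1. They were taken by gene symbol, and all 10 symbols (MYC, MYCN, MYCL, MAX, MXD1, MXD3, MXD4, MNT, MLX and MGA) were among the 16376 genes of the expression table. All 10 had a mean of at least 0.1 FPKM (fragments per kilobase of gene, scaled to a fixed number of mapped fragments), the minimum for testing, as did 12663 genes in all. RNA of cells under PBS, the control, and of cells under fluoxetine, an antidepressant that blocks serotonin reuptake, was sequenced with 2 libraries in each group. The treatment labels give fluoxetine for the treated libraries, whose titles carry the letters PP, which the labels do not explain. The results text of the study gives 5 uM fluoxetine for 48 h. The labels give day 3, which the study does not relate to the 48 h, and the genotype WT for every library. The added MYCN and AKT1 are therefore common to both groups, and transcripts of the added MYCN and of the chromosomal gene cannot be told apart in this table. The labels do not say whether the 2 libraries of a group came from separate cultures, so the p-values measure only the spread between these libraries.

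Proteins of the MYC family (MYC, MYCN and MYCL) bind DNA only as a dimer with MAX, at a short sequence called the E-box, and mostly raise transcription of genes for growth and ribosome production. MXD1, MXD3, MXD4, MNT and MGA also pair with MAX, and recruit corepressors to the same sites, so that they act against the MYC family. MLX is a MAX-like protein that pairs with some MXD proteins, with MNT and with the glucose-sensing factors MLXIP and MLXIPL. In neuroendocrine cancers the family member in use is often MYCN or MYCL in place of MYC.

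The FPKM were made of whole reads, and solving for these gave depths of 32873603 and 34756748 mapped reads for PBS replicates 1 and 2, and 34806710 and 34831389 for fluoxetine replicates 1 and 2. The neuroendocrine markers NCAM1 (52.0 and 51.2 FPKM with PBS, 44.3 and 47.1 with fluoxetine) and INSM1 (21.7 to 24.2 FPKM) were high in every library, whereas SYP had at most 0.629 FPKM. CHGA, CHGB, NEUROD1 and FOXA2 were all under 0.1 FPKM. The summed basal markers KRT5, TP63 and KRT15 reached at most 0.127 FPKM. The luminal keratin KRT8 had 434.3 and 411.5 FPKM with PBS and 475.4 and 446.4 FPKM with fluoxetine, and KRT18 had 359.0 to 412.0 FPKM with groups that overlapped. The part of these markers in the results was not tested. The 5 fibroblast markers summed to at most 3.07 FPKM and the 4 immune markers to at most 3.99 FPKM, and PTPRC, which marks white blood cells, was at most 0.0318 FPKM. Fluoxetine replicate 1 stood apart in how its values depended on gene length. In it the correlation across genes between log2 gene length and how far each gene lay from its own mean was -0.283, against 0.0456 to 0.188 in the other 3 libraries.

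MYCN held nearly all of the MYC family RNA in every library. With PBS it had 369.7 and 386.5 FPKM, and with fluoxetine 323.1 and 363.6 FPKM (378.1 ± 11.9 and 343.4 ± 28.6, mean ± SD, n = 2 each). Each fluoxetine library was below each PBS library, and most of the difference lay in fluoxetine replicate 1. In RNA of whole cultures, fewer cells with a transcript and less of it per cell cannot be told apart. By its mean, MYCN ranked 113th of the 16376 genes, and it took between 0.0931% and 0.111% of the reads recovered on listed genes. Reads of some abundant genes, such as PTMA and NPM1, were not recovered, so its share over all listed genes would be lower. By GENCODE 29 MYCN (ENSG00000134323.11) spans 15940564 to 15947007 on chromosome 2 of GRCh38, the build of all gene positions given. Of genes on the same stretch of chromosome 2, DDX1, an RNA helicase gene, had 59.6 to 67.3 FPKM, NBAS 7.10 to 8.55 FPKM and CYRIA 7.65 to 8.80 FPKM, with groups that overlapped for all of them.

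MYCL, the family member first found in small cell lung cancer, was the next in level. It had 3.54 and 3.39 FPKM with PBS and 3.89 and 3.41 FPKM with fluoxetine, and the groups overlapped. The FPKM of MYCN was 83.0 to 113.9 times that of MYCL in the same library. MYCL lies on chromosome 1 from 39895426 to 39902256.

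MYC itself was close to the lower limit of what was tested. It had 0.263 and 0.191 FPKM with PBS and 0.108 and 0.140 FPKM with fluoxetine. These values rested on 39 and 30 reads with PBS and on 17 and 22 reads with fluoxetine. The exact Poisson intervals (95%) of these counts were 27.7 to 53.3, 20.2 to 42.8, 9.90 to 27.2 and 13.8 to 33.3 reads, and they cover counting error only. Both libraries with fluoxetine were below both with PBS. Between the groups, only the intervals of PBS replicate 1 and fluoxetine replicate 1 did not overlap, but overlap of such intervals is not a test of a difference. Together the PBS libraries had 69 reads of MYC and the fluoxetine libraries 39. The FPKM of MYCN was 1408 to 2989 times that of MYC. MYC ranked 12147th of the 16376 genes and lies on chromosome 8 from 127735434 to 127741434.

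Of the summed FPKM of MYC, MYCN and MYCL, MYCN made up 98.98% and 99.08% in the PBS libraries and 98.78% and 99.03% in the fluoxetine libraries. The groups overlapped, and the difference of -0.127 percentage points had p = 0.67 in a two-sided exact permutation test. With 2 libraries against 2, the smallest p of that exact test is 0.33, so none of the ratios of this kind could pass a threshold of 0.05.

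MAX, the obligate partner of the family, was far below MYCN in RNA. It had 24.9 and 26.9 FPKM with PBS and 26.4 and 25.4 FPKM with fluoxetine, a level that hardly varied over the 4 libraries. The FPKM of MYCN was 14.8 and 14.3 times that of MAX with PBS and 12.3 and 14.3 times with fluoxetine, a difference of -1.31 (p = 0.33 in the exact permutation test, its smallest value). Without fluoxetine replicate 1 the difference was -0.285. Ratios of FPKM between genes, here and below, are of RNA and do not give the ratios of the proteins. MAX lies on chromosome 14 from 65006174 to 65102695.

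Among the MAX partners that oppose the family, MXD4 was the most abundant and MXD1 the least. MXD4, on chromosome 4 from 2247432 to 2262294, had 26.4 and 24.8 FPKM with PBS and 26.7 and 27.7 FPKM with fluoxetine, and its range overlapped that of MAX. MXD3, on chromosome 5 from 177301461 to 177312757, had 5.25 and 4.98 FPKM with PBS and 6.54 and 5.61 FPKM with fluoxetine. Both fluoxetine libraries were above both PBS libraries for MXD4 and MXD3, by a small margin. MXD1, a gene that is induced when many cell types differentiate, lies on chromosome 2 from 69897688 to 69942945. It had 2.39 and 3.21 FPKM with PBS and 2.56 and 2.57 FPKM with fluoxetine, so that both fluoxetine libraries lay between the PBS libraries.

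MNT and MGA are the large members of this group, and MGA also belongs to a Polycomb complex that silences germ cell genes. MNT, on chromosome 17 from 2384060 to 2401118, had 9.50 and 11.3 FPKM with PBS and 9.03 and 8.96 FPKM with fluoxetine. MGA, on chromosome 15 from 41621224 to 41773081, had 11.99 and 12.7 FPKM with PBS and 9.68 and 12.3 FPKM with fluoxetine. For MNT both libraries with fluoxetine were below both with PBS, whereas for MGA only fluoxetine replicate 1 was. The gene lengths behind the FPKM were 12011 bases for MGA and 9179 bases for MNT, the longest of the 10 genes.

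MLX was the second most abundant gene of the network. It had 37.1 and 40.1 FPKM with PBS and 42.4 and 40.2 FPKM with fluoxetine, and lies on chromosome 17 from 42567068 to 42573239. The FPKM of MLX was 1.49 times that of MAX in both PBS libraries, and 1.61 and 1.58 times in the fluoxetine libraries (p = 0.33 in the exact permutation test).

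In the order of mean FPKM, from MYCN through MLX, MXD4, MAX, MGA, MNT, MXD3 and MYCL to MXD1 and MYC, the neighbours MXD4 and MAX overlapped in range over the 4 libraries, and so did MGA and MNT. MGA was above MNT within each of the 4 libraries, and MXD4 above MAX in 3. No other pair of neighbours overlapped, and the closest of these, MYCL and MXD1, differed by 1.33 times in mean. The 5 opposing genes together had 55.5 and 57.0 FPKM with PBS and 54.5 and 57.1 FPKM with fluoxetine, which was 2.07 to 2.25 times MAX. Relative to the summed MYC family, they came to 0.149 and 0.146 with PBS and to 0.167 and 0.156 with fluoxetine (difference 0.0137, p = 0.33 in the exact permutation test). MXI1, a further MXD family member at 18.7 to 21.3 FPKM, is not among the 10 genes and was left out of these sums. With it, the sums and their ratios to MAX and to the MYC family would be higher.

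To ask whether fluoxetine changed any of these genes, log2(FPKM + 0.1) was compared between the groups with limma over all 12663 genes, with Benjamini-Hochberg adjustment. The added 0.1 makes the fold change of a low gene such as MYC too small. None of the 10 genes passed an adjusted p of 0.05, which 30 genes (0.237%) did over the whole table, 27 of them lower (0.213%) and 3 higher in fluoxetine (0.0237%). None of the 10 had an unadjusted p under 0.05 either, against 8.51% of all genes tested. The fluoxetine libraries both lay below the PBS libraries for 3 of the 10 (MYC, MYCN and MNT), against 24.8% of all genes, and above them for 3 (MXD3, MXD4 and MLX), against 16.7%. The median log2 fold change of the 10 was -0.06, beside -0.02 for all genes tested.

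MYCN had a log2 fold change of -0.14 (standard error 0.09, 95% interval -0.33 to 0.04, adjusted p = 0.624). Without fluoxetine replicate 1 this was -0.06, and without fluoxetine replicate 2 it was -0.23. MYC had the largest estimate of the 10, at -0.54, with the widest interval, from -1.35 to 0.27 (adjusted p = 0.667). MYCL, at 0.07, had an interval from -0.20 to 0.34, and without fluoxetine replicate 1 its estimate was -0.02.

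MXD3 came nearest to the threshold, with a log2 fold change of 0.24 (standard error 0.11, interval -0.0011 to 0.48, unadjusted p = 0.0509, adjusted p = 0.579 from limma). MNT had -0.20 (interval -0.42 to 0.02, adjusted p = 0.598), and -0.08 without PBS replicate 2. MGA had -0.17 (interval -0.41 to 0.07, adjusted p = 0.638), and -0.0022 without fluoxetine replicate 1. After the trend of values with gene length was removed in each library, MGA had -0.07 and MNT -0.12. MXD1 had -0.11 (interval -0.44 to 0.22), and its estimate turned to 0.10 without PBS replicate 2.

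MAX had a log2 fold change of -0.0018 with an interval from -0.17 to 0.17, MLX of 0.10 with one from -0.07 to 0.26, and MXD4 of 0.09 with one from -0.08 to 0.25. None of the intervals of MAX, MLX, MXD4 and MYCN reached past -0.33 or 0.26. Over all 10 genes and all alternative settings, the lowest adjusted p was 0.323, for MGA without fluoxetine replicate 2.

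The remaining genes of the extended network are MXI1, a further MXD family member, MLXIP and MLXIPL, the glucose-sensing partners of MLX, and TXNIP and ARRDC4, which these partners induce. TXNIP had 45.8 and 47.6 FPKM with PBS and 40.9 and 41.3 FPKM with fluoxetine. The log2 fold change of TXNIP was -0.18 (standard error 0.07, unadjusted p = 0.0229, adjusted p = 0.535). MXI1 had 21.2 and 21.3 FPKM with PBS and 19.6 and 18.7 FPKM with fluoxetine. The log2 fold change of MXI1 was -0.15 (adjusted p = 0.604). In both, the fluoxetine libraries were below the PBS libraries, which made 2 of the 5 genes (40%, beside 24.8% of all genes). At an unadjusted p under 0.05 only TXNIP, 1 of the 5, was lower, beside 4.79% of all genes. None of the 5 genes passed the adjusted threshold. The groups overlapped for MLXIP (31.6 to 36.3 FPKM), MLXIPL (3.97 to 5.76 FPKM) and ARRDC4 (12.5 to 14.2 FPKM), whose log2 fold changes were -0.09, -0.24 and -0.08.

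The E-box letters CACGTG, which read the same on both strands, were searched in the RefSeq promoter windows of 300 bases, from 250 before to 50 after a start site (GRCh38.p14). Windows were given for 9 of the 10 genes, all but MYC, and 3 of these 9 genes held the E-box. They are shown because MXD4, MNT and MLX are themselves read out here, with the E-box in capitals and 5′ to 3′ on the strand of the gene:
MXD4 (chr4:2262330-2262359, minus strand): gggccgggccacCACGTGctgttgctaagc
MNT (chr17:2401236-2401265, minus strand): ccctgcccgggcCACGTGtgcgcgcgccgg
MLX (chr17:42567038-42567067, plus strand): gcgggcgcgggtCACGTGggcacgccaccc

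Counted from the start site, the first base of the E-box was at -238 in MXD4, at -193 in MNT and at -50 in MLX. Of all 35116 promoter windows 7.26% held the motif, of those of genes tested 9.34%, and of the 12 windows of the network genes 25%. A match is a description of the letters and not a bound site. MXD4 and MLX had both fluoxetine libraries above both PBS libraries, as did 16.7% of all genes tested. MNT had both below, as did 24.8%. Over all tested genes with a window, both were above for 18.3% with the motif and 16.8% without. A link between the motif and the treatment was not tested.

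Genes that the MYC family is known to raise were taken from a list of 57 targets, most of which act in the nucleolus, in ribosome assembly or in protein folding. All 57 were tested and none passed an adjusted p of 0.05. With fluoxetine 44 had a log2 fold change above 0 and 13 below, whereas of all 12663 genes 5507 were above. The fluoxetine libraries both lay above the PBS libraries for 20 of the 57 (35.1%, beside 16.7% of all genes) and below for 6 (10.5%, beside 24.8%). At an unadjusted p under 0.05, 9 of the 57 were higher and 1 lower, beside 3.73% higher and 4.79% lower of all genes. The median log2 fold change was 0.05, beside -0.02 for all genes. After removal of the length trend these medians were 0.05 and -0.0063, and after rescaling to TPM they were -0.0023 and -0.07. The sign of the list's median thus turned with the scale, while on each scale it lay above the median of all genes.

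The target genes with the smallest p were EXOSC5, CDK4 and WDR74. EXOSC5, a subunit of the RNA exosome, had 27.1 and 28.97 FPKM with PBS and 32.4 and 35.1 FPKM with fluoxetine (log2 fold change 0.27, standard error 0.08, adjusted p = 0.378). CDK4, the kinase that opens the way from G1 into S phase, had 81.5 and 70.8 FPKM with PBS and 97.5 and 87.3 FPKM with fluoxetine (0.28, standard error 0.09, adjusted p = 0.409). WDR74, a ribosome assembly factor, had 42.6 and 41.1 FPKM with PBS and 51.5 and 46.6 FPKM with fluoxetine (0.23, standard error 0.08, adjusted p = 0.480). In all of them the fluoxetine libraries were above the PBS libraries, a separation that the choice by smallest p favours. A link with the level of MYCN was not tested.

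Of the 60 promoter windows of this list 41.7% held the E-box, and of the 25 windows of the other classical targets 36.0%. The windows of CDK4 and EXOSC5 held 3 and 2 copies, and LDHA held 2. No E-box was found for WDR74 or CDCA7, and that of NME1 is not shown. Those of CDK4, EXOSC5 and LDHA are shown as examples of the motif among targets with small p, on the strand of the gene:
CDK4 (chr12:57752509-57752538, minus strand): atgtcaagcggtCACGTGtgatagcaacag
CDK4 (chr12:57752489-57752518, minus strand): atagcaacagatCACGTGgctgccatcgcc
CDK4 (chr12:57752394-57752423, minus strand): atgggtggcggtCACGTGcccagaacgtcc
EXOSC5 (chr19:41397431-41397460, minus strand): taaacgctaagcCACGTGcggacgcccagg
EXOSC5 (chr19:41397328-41397357, minus strand): caactgcagccgCACGTGggctcggcgcga
LDHA (chr11:18394366-18394395, plus strand): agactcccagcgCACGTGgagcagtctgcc
LDHA (chr11:18394464-18394493, plus strand): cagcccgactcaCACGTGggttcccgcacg

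The median log2 fold change of the 25 listed targets with an E-box was 0.02, and that of the 21 with a window but no E-box was 0.09. Over all tested genes with a window, the medians were -0.01 with and -0.02 without the motif. The fold changes of CDK4 and EXOSC5 were above 0, and that of LDHA was below it.

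A second list of 23 classical targets, from the polyamine enzyme ODC1 to the nucleolar proteins NCL and FBL, had 22 tested genes and none past the adjusted threshold. Of these 12 had a log2 fold change above 0 and 10 below, whereas of all 12663 genes 5507 were above. Their median was 0.01, beside -0.02 for all genes. The fluoxetine libraries both lay below the PBS libraries for 5 of the 22 (22.7%, beside 24.8% of all genes). They lay above for 5 (22.7%, beside 16.7%). At an unadjusted p under 0.05, 1 of the 22 was lower, beside 4.79% of all genes, and none was higher, beside 3.73%. The smallest p were those of LDHA, CDCA7 and NME1. LDHA, the dehydrogenase that makes lactate, had 482.2 and 461.7 FPKM with PBS and 420.7 and 401.6 FPKM with fluoxetine (log2 fold change -0.20, unadjusted p = 0.0300, adjusted p = 0.541), and LDHA is also a known hypoxia gene. NME1, a nucleoside diphosphate kinase, had a log2 fold change of 0.14 and CDCA7 of -0.15 (adjusted p = 0.613 for both).

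Genes known to be repressed by MYC or MYCN gave the only gene of the lists to pass. Of 15 listed, 11 were tested, 7 with a log2 fold change below 0 and 4 above, whereas of all 12663 genes 7156 were below. NDRG1, which MYCN represses and hypoxia induces, had 5.35 and 5.81 FPKM with PBS and 1.66 and 2.68 FPKM with fluoxetine. It fell by 1.36 on the log2 scale (standard error 0.18, adjusted p = 0.0073). Its log2 fold change ranged from -1.69 to -1.03 with a library left out, and from -1.43 to -1.07 under the alternatives with all libraries. The adjusted p was 0.171 or 0.268 without PBS replicate 1 or 2, 0.665 without the filter on low values and 0.398 without the variance trend, and NDRG1 passed under all the others. TGM2, a transglutaminase, had 0.794 and 1.09 FPKM with PBS and 0.290 and 0.317 FPKM with fluoxetine (log2 fold change -1.35, standard error 0.25, adjusted p = 0.0616). NDRG4 had a log2 fold change of -0.35 (adjusted p = 0.598). For these 3 genes, picked by smallest p, the fluoxetine libraries were below the PBS libraries. That held for 4 of the 11 tested (36.4%, beside 24.8% of all genes). The fluoxetine libraries were above for 2 (18.2%, beside 16.7% of all genes). A link with the level of MYCN was not tested.

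The RNA of the genes that work with the network was compared in the same way. Of 19 cofactors of MYC and MAX, among them TRRAP, the scaffold of histone acetyltransferases, none passed the adjusted threshold and the median log2 fold change was -0.02. The cofactors with the smallest p were EP300, a histone acetyltransferase (-0.20), BPTF, of a nucleosome remodelling complex (-0.16), and HCFC1, a chromatin adaptor (-0.18), with adjusted p of 0.598, 0.614 and 0.614. Of 15 corepressors of MXD, MNT and MGA none passed, with a median of 0.02 (CBX3 is also among the 57 targets, as is PLK1 of the next list). These were led by ARID4B (-0.20) and SIN3A (-0.16) of the SIN3 complex and by PCGF6 (0.18), the Polycomb partner of MGA. Of 17 genes that set the stability of MYC and MYCN protein none passed, with a median of -0.02. The smallest p were those of GSK3B (-0.17) and FBXW7 (-0.16), the kinase and the ubiquitin ligase subunit that mark MYC and MYCN for destruction, and of USP28 (-0.12), a deubiquitinase that opposes FBXW7. The fluoxetine libraries both lay below the PBS libraries for 6 of these 17 (35.3%, beside 24.8% of all genes), and above for none.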

How the data were processed

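The authors deposited 1 FPKM value per gene and library. The submitters' processing notes name fastp, HISAT2, HTSeq and GRCh38, while the gene annotation is not given in the sources used here. The labels name a TruSeq kit and the methods a VAHTS kit. All 4 columns matched 1 sample each by its description, with groups from the treatment labels.

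Groups were compared by limma 3.58.1 under R 4.3.3, which used log2(FPKM + 0.1) and moderated variances that follow a trend with level, for 12663 genes with a mean of at least 0.1 FPKM, with Benjamini-Hochberg adjustment. The deposited unit is FPKM, so a log-scale test was the main one. The recovered reads (below) were tested with limma voom as an alternative, and the DESeq2 named in the methods was not run. Ratios within a library were compared with two-sided exact permutation tests.

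Reads were solved as the smallest whole numbers that gave the FPKM ratios between libraries (within 0.004 of a whole number) and a gene length of whole bases, at the depth shared by 45 genes with GENCODE 29 exon lengths. This solved 99.7% of the 16080 genes above 0, all 10 network genes included. The steps were tested on simulated data. Python 3.11.15, pandas 2.3.3 and scipy 1.17.1 were used.

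The network genes, the 8 gene lists and 5 marker lists were chosen with earlier results of these data known, and the lists came from general knowledge. Some markers, and the sums over their lists, are not reported here. Named were the network genes, every gene of a list of under 10, and of longer lists the 3 genes with the smallest p and any that passed. With a library left out, the lone library of a group is assumed to vary like the other group.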

Additional observations from a re-analysis of the deposited data

How the results depend on the processing

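None of the 10 network genes passed an adjusted p of 0.05 under any of the 17 alternatives. MYC could not be tested at a minimum mean of 1 FPKM. Over all genes 8 settings left the count that passed within 1.5 times of the 30 reported. It was 0 without the filter on low values (1175 at an unadjusted p under 0.05), 0 without the variance trend (933), 16 with quantile normalization, 64 with the replicate block and 54 with limma voom on the recovered reads, and 3 to 17 with a library left out. Libraries with the same number deviated from their group means with a correlation of 0.0351 over all genes tested and 0.101 over those of at least 10 FPKM. No label says that a number marks a shared culture or batch, so the numbers were not taken as pairs, and the block changed no call among the network genes.

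MAX, near 0, changed sign with median centring (0.024) and with voom (0.0036). With a library left out, log2 fold changes ranged from -0.058 to 0.054 for MAX, from -0.32 to 0.10 for MXD1, from -0.022 to 0.16 for MYCL, from -0.19 to 0.018 for NBAS and from -0.16 to 0.032 for CYRIA. The difference in the MYCN share ranged from -0.255 to 0.0014 percentage points. The cause was not tested. TGM2 passed with robust moderation, the replicate block and voom (adjusted p of 0.0493, 0.0185 and 0.0044). Voom and the removal of the length trend were chosen after seeing the data. With 39 reads or fewer per library, depth limits what can be said of MYC.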
